A study of Homo sapiens with 12 samples.

Results

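Transcripts of 9 genes that start, restrain or clear blood clots, or that bind at the cell surface beside them, were followed in human fibroblasts: F3, TFPI, TFPI2, THBD, PROCR, PLAU, PLAUR, PLAT and THBS1. The genes were taken by symbol, and all 9 of the 9 symbols had 1 row in each of 4 tables that hold 55737 rows with a gene symbol. The cells were HCA2 (MJ90), a line of skin fibroblasts grown in 10% serum, in which doxycycline switches on a short hairpin RNA against FBXO22 (shFbxo22) or against luciferase (shLuc). There were 4 groups of 3 libraries: shFbxo22 cells driven into senescence by ionizing radiation (10 Gy), young low-passage shFbxo22 cells, irradiated senescent shLuc cells, and young low-passage shLuc cells. Every group, the shLuc controls included, thus carried an inducible hairpin. The dose and time of doxycycline and the days after irradiation are not given in the sources used here. The labels name no separate cultures, so p-values rest on variation among libraries that may be technical only.

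F3 encodes tissue factor, the membrane receptor that binds coagulation factor VII and starts clotting. TFPI and TFPI2 encode Kunitz-type protease inhibitors, of which TFPI blocks the tissue factor complex and TFPI2 inhibits plasmin and other proteases. THBD (thrombomodulin) and PROCR (the endothelial protein C receptor) are surface proteins that bind thrombin and protein C and turn them to the activation of protein C, an anticoagulant protease. PLAU (urokinase) and PLAT (tissue plasminogen activator) convert plasminogen into plasmin, which dissolves fibrin, and PLAUR is the surface receptor for urokinase. THBS1 (thrombospondin-1) is a large secreted matrix glycoprotein that binds CD47 and CD36 and can activate latent TGF-beta. Fibroblasts make many of these proteins, and skin fibroblasts are a known source of tissue factor.

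The values are those of the authors' deposited tables, each a comparison of 2 groups of 3 libraries with a base mean (the mean normalized count over the 6 libraries), a moderated log2 fold change, its standard error (SE) and an adjusted p from a Wald test. A gene was called where the adjusted p was under 0.05. Fold changes are senescent over young cells or shFbxo22 over shLuc cells, so the signs of 2 of the deposited tables, senescence in shFbxo22 and the hairpins in senescent cells, were turned and every value quoted from them has the opposite sign in the deposit. Group means are reconstructed from a base mean and a fold change and averaged over the 2 tables that hold a group. They carry no error of their own, and values per library were not analysed here, so overlap between the libraries of 2 groups could not be seen. For the 9 genes the 2 estimates of a group mean lay within 0.067 on the log2 scale, and within 0.037 when THBS1 is left out. Both estimates rest on the same libraries of the group, so their closeness is no measure of error.

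FBXO22 itself averaged 746 normalized counts in the libraries labelled shFbxo22 senescent, 254 in shFbxo22 young, 371 in shLuc senescent and 438 in shLuc young libraries. It was lower with its hairpin in young cells, with a log2 fold change of -0.81 ± 0.15 (SE) in the authors' deposited table. Among senescent libraries those labelled shFbxo22 had more of it, at 1.01 ± 0.12 once the sign was turned, from -1.01 in the authors' deposited table. This goes against the label, and whether labels or table names were exchanged was not tested. An exchange could also involve the libraries labelled shLuc senescent. Results on either senescent group therefore describe the label, and those on the shFbxo22 one do not describe a reduced FBXO22 transcript. Wherever senescent shLuc cells or libraries are named below, the name is that label. The 10 fibroblast markers examined were all abundant, the lowest base mean being 1456. The base means of a table summed to between 21875600 and 21895700 normalized counts, which are scaled values and do not give the depth of a library. In such bulk samples, fewer cells of a type and less RNA per cell cannot be told apart.

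Tissue factor showed the widest range of levels over the groups on the log scale, from 77.5 normalized counts in senescent shLuc cells to 2401 in young shFbxo22 cells. The libraries labelled shFbxo22 senescent held 1502. THBD ran the other way, with its highest level in senescent shLuc cells. TFPI2 and PROCR were higher in senescent than in young cells with either hairpin, PLAU was lower in both, and PLAT and THBS1 were highest in young shFbxo22 cells. The plot of group means shows all 9 genes.

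**Figure D1:**
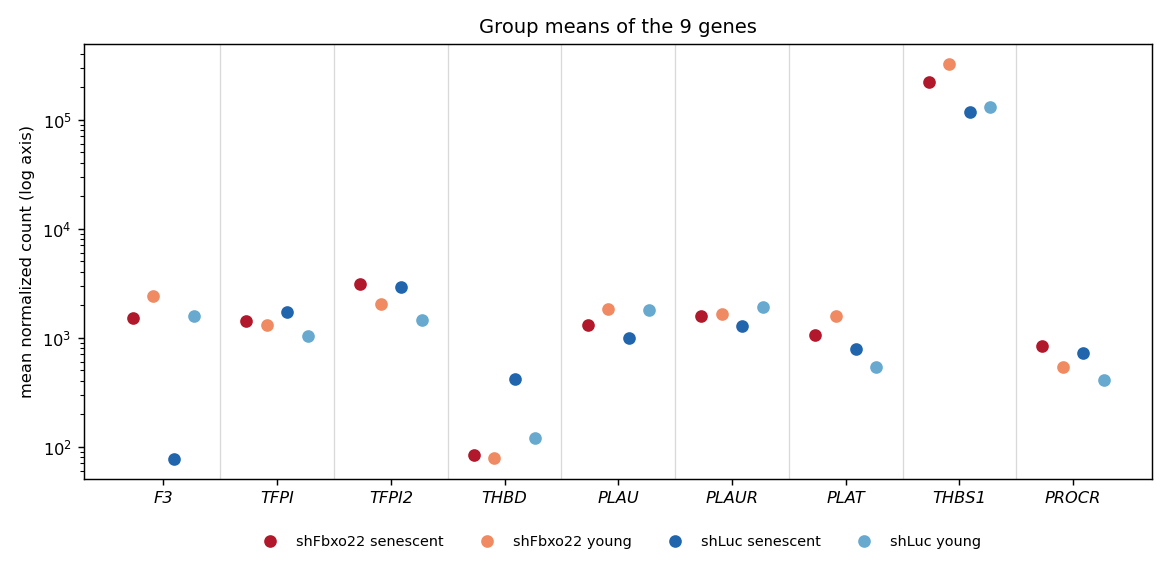
Mean normalized count (log axis) of the 9 genes in each group, reconstructed from the authors' deposited tables. Points run from shFbxo22 senescent (as labelled) through shFbxo22 young and shLuc senescent to shLuc young, and short bars, mostly hidden by the points, join the 2 estimates of a mean. F3 sits at 77.5 in shLuc senescent libraries and at 1502 or more in the other groups.

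In the libraries labelled shFbxo22 senescent, against young shFbxo22 libraries, 2 of the 9 genes were called higher and 3 lower, where 8.16% of 18758 genes tested were higher and 9.57% lower. In senescent against young shLuc libraries, 5 were higher and 3 lower, where 21.2% of 21889 genes were higher and 21.3% lower. With shFbxo22 against shLuc in young cells, 6 were higher and 1 lower, where 18.7% of 20082 genes were higher and 17.3% lower. In senescent cells, 5 rose and 2 fell with shFbxo22 as labelled relative to shLuc, where 20.2% of 22788 genes were higher and 19.9% lower. The median log2 fold change of the 9 genes in these comparisons was -0.09, 0.55, 0.36 and 0.28, beside medians of 0.0014, -0.0031, -0.012 and -0.0089 over all genes tested. The 4 comparisons share their groups in pairs, so these counts are not independent of each other. Most of the 9 genes are also abundant: all but THBD lay above the 65th percentile of base mean among the genes tested in each table, and THBD lay between 35.2 and 59.7.

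**Figure D2:**
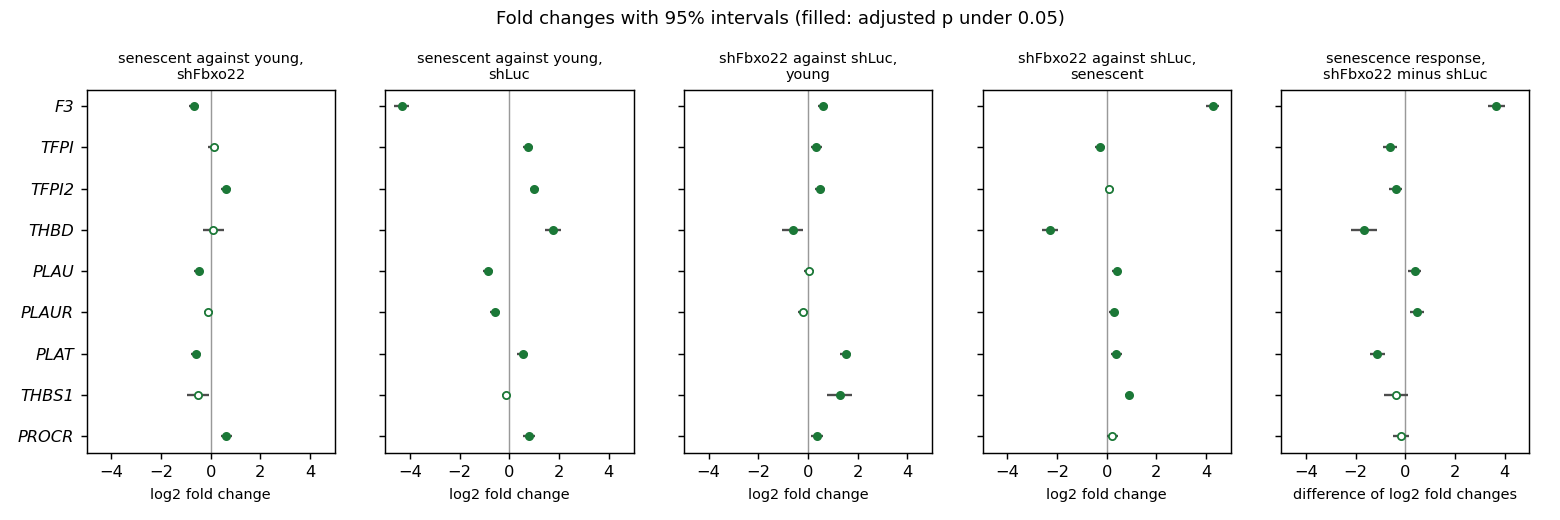
Log2 fold changes of the 9 genes in the 4 comparisons, and in the right-hand panel the shFbxo22 senescence response minus the shLuc senescence response. Bars are 95% intervals from the standard errors, filled points have an adjusted p under 0.05, and F3 lies at -4.34 for senescence in shLuc and at 4.26 for the hairpins in senescent cells.

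The letters just before the transcript starts are given for F3, TFPI2, PLAUR and THBS1, which cover the steepest fall, a rise with both hairpins, the urokinase receptor and the most abundant of the 9 genes. RefSeq promoters on the build GRCh38.p14 were used for 7 of the 9 genes. Those of THBD and PLAT were not examined, which does not mean that RefSeq lists none for them. Each line holds the 250 bases before the start, 5′ to 3′ on the gene's own strand, and capitals mark matches to any of 8 motifs searched on both strands.
F3, chr1:94541760-94542009, minus strand: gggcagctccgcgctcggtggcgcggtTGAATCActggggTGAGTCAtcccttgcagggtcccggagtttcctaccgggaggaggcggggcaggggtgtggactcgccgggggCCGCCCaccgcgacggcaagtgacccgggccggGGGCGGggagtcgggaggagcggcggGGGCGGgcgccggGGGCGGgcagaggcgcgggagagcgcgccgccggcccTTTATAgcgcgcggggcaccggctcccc
TFPI2, chr7:93890754-93891003, minus strand: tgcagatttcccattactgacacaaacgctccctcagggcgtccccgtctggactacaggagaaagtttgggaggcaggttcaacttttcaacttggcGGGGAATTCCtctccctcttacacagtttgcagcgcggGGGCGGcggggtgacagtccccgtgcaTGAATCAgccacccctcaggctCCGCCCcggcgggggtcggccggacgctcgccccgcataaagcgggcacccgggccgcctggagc
PLAUR, chr19:43670170-43670419, minus strand: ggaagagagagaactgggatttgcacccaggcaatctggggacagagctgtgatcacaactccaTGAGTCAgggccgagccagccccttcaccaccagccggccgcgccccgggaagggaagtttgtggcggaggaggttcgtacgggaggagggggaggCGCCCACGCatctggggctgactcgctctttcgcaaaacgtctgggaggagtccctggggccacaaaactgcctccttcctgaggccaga
THBS1, chr15:39580829-39581078, plus strand: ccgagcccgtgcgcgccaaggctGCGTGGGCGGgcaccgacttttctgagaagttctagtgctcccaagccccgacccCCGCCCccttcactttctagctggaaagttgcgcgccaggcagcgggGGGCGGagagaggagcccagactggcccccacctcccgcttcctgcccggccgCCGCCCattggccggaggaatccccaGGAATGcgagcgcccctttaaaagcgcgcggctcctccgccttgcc

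The AP-1 letters TGANTCA, which read the same on both strands, stood at 2 places before F3, starting 223 and 210 bases before the start, at 1 place before TFPI2 (87 bases) and at 1 place before PLAUR (186 bases). They occur in 6.57% of 35114 RefSeq promoters over the same 250 bases. The 3 genes with these letters did not move alike, as the values below show: in shLuc senescence F3 and PLAUR were lower and TFPI2 was higher. The EGR1 letters GCGTGGGCG stood before PLAUR and THBS1 and occur in 0.721% of promoters, and before THBS1 they overlap an SP1 box. The TEAD letters GGAATG stood before THBS1, 46 bases from the start, and occur in 11.9%. SP1 boxes (GGGCGG), present in 42.6% of promoters, stood before 5 of the 7 genes. The TATA letters TATAAA (10.7%) stood before F3 and PROCR, in both only on the strand opposite to the gene. The NF-kB motif (5.21%) stood before TFPI2 only among the 7 genes. The SMAD letters CAGACA (13.6%) and the p53 half-site (5.57%) were in none of these windows. A match is a description of the letters and not evidence that a factor binds there.

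**Figure D3:**
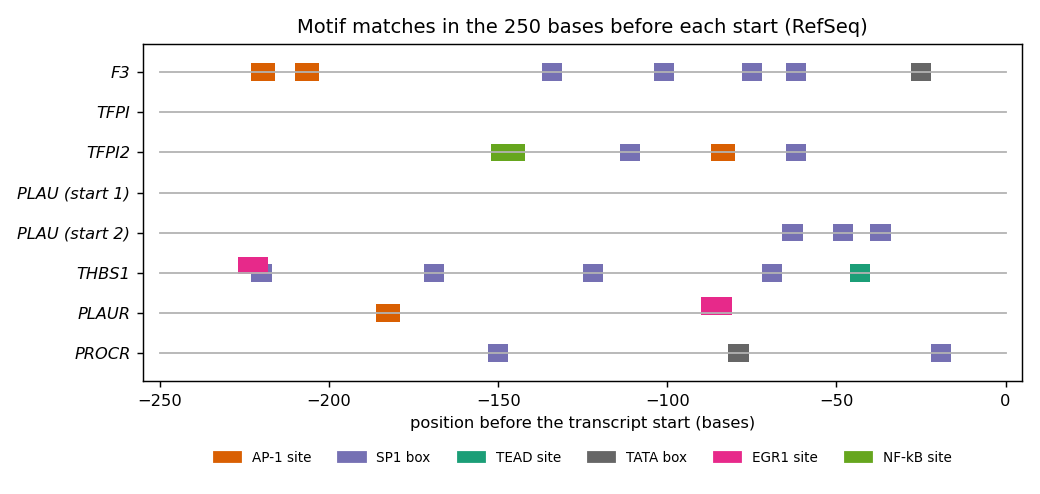
Matches to the searched motifs in the 250 bases before each RefSeq start of 7 genes, with both listed starts of PLAU. The horizontal axis is the distance in bases to the start at 0, each coloured box is a match, and the windows of TFPI and of the first PLAU start hold none.

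F3 averaged 1502 normalized counts in the libraries labelled shFbxo22 senescent, 2401 in shFbxo22 young, 77.5 in shLuc senescent and 1573 in shLuc young libraries. The libraries labelled shLuc senescent thus held a small remainder of the tissue factor transcript. With shFbxo22 as labelled F3 fell by 0.67 ± 0.10 on the log2 scale in senescence (adjusted p = 3.28e-10) in the authors' deposited table. With shLuc it was 20.3-fold lower in senescent libraries in the authors' deposited table, at a log2 fold change of -4.34 ± 0.15 (adjusted p = 5.00e-187). It was the 6th largest fall among the 9915 genes of that table whose base mean reached 200. Between hairpins, F3 was higher with shFbxo22 in young cells, at 0.60 ± 0.11 (adjusted p = 1.10e-07) in the authors' deposited table. Among senescent libraries it was 19.2-fold higher in the libraries labelled shFbxo22, at 4.26 ± 0.14 (adjusted p = 1.06e-195) in the authors' deposited table, the 29th largest rise of 9847 genes. The libraries labelled shFbxo22 senescent and the shLuc young libraries stand in no common table. Adding fold changes along either route between them gave log2 differences of -0.081 and -0.073. The standard errors of these sums are at most 0.20 and 0.14, and no test was made.

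TFPI, the inhibitor of the tissue factor complex, averaged 1415 normalized counts in the libraries labelled shFbxo22 senescent, 1302 in shFbxo22 young, 1714 in shLuc senescent and 1026 in shLuc young libraries. Its highest level was in senescent shLuc cells, where F3 was lowest, and its range was far narrower. With shFbxo22 as labelled, senescent libraries were at 0.11 ± 0.11 against young ones, with an interval of -0.096 to 0.32 (adjusted p = 0.58), in the authors' deposited table. TFPI rose in shLuc senescence with 0.74 ± 0.10 (adjusted p = 1.21e-11) in the authors' deposited table. With shFbxo22 it was higher in young cells, at 0.33 ± 0.11 (adjusted p = 0.0073), and lower in senescent cells, at -0.28 ± 0.10 (adjusted p = 0.019), in the authors' deposited tables.

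TFPI2, a secreted inhibitor of plasmin, averaged 3125 normalized counts in the libraries labelled shFbxo22 senescent, 2027 in shFbxo22 young, 2919 in shLuc senescent and 1450.4 in shLuc young libraries. Both senescent groups lay above both young groups. Its rise in senescence was 0.61 ± 0.10 on the log2 scale in the libraries labelled shFbxo22 (adjusted p = 6.71e-08) and 2.01-fold in shLuc libraries (standard error 0.095 on the log2 scale, adjusted p = 6.11e-25) in the authors' deposited tables. Young shFbxo22 cells were already higher than young shLuc cells, by 0.47 ± 0.10 (adjusted p = 4.42e-05), in the authors' deposited table. Between hairpins in senescent cells it was at 0.095 ± 0.093, with an interval of -0.087 to 0.28 (adjusted p = 0.46), in the authors' deposited table.

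THBD, which encodes thrombomodulin, averaged 84.6 normalized counts in the libraries labelled shFbxo22 senescent, 78.1 in shFbxo22 young, 414 in shLuc senescent and 120.4 in shLuc young libraries. It was the least abundant of the 9 genes outside senescent shLuc cells, the one group in which it exceeded F3 in raw normalized counts. The libraries labelled shFbxo22 senescent were at 0.096 ± 0.21 against young ones, with an interval of -0.32 to 0.52 (adjusted p = 0.86), in the authors' deposited table. With shLuc THBD rose 3.40-fold in senescence, with 1.77 ± 0.16 (adjusted p = 2.21e-27) in the authors' deposited table. It was lower with shFbxo22 in young cells, at -0.61 ± 0.22 (adjusted p = 0.015), and 4.85-fold lower in senescent cells, at -2.28 ± 0.17 (adjusted p = 7.14e-41), in the authors' deposited tables.

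Since thrombomodulin is best known from endothelial cells, 6 endothelial markers were sought beside it. No value was read for PECAM1, which left 5. CDH5 had a base mean of 0 in 2 tables and of at most 0.166 in the others, and CLDN5 of at most 0.83. VWF had base means of 46.9 to 49.8 and TEK of 33.0 to 94.6. VWF moved as THBD did in shLuc senescence, at 1.36 ± 0.30 (adjusted p = 3.71e-05), while TEK was at -2.77 ± 0.39 and KDR at -1.37 ± 0.63 (adjusted p = 0.067), in the authors' deposited table. Between hairpins in senescent cells VWF was at -1.18 ± 0.31 and KDR at -4.65 ± 0.40, both lower as THBD was, and TEK was at 2.56 ± 0.39, in the authors' deposited table. Summed over the group, the 5 endothelial markers with values came to 93.4 to 99.4 normalized counts in the libraries labelled shFbxo22 senescent, 190 to 353 in shFbxo22 young, 232 to 287 in shLuc senescent and 531 to 632 in shLuc young libraries, by the 2 tables that hold each group. Much of the sum in the shLuc groups was KDR, at 154 to 209 in shLuc senescent and 435 to 540 in shLuc young libraries. It came to 3.70 to 6.10 in the libraries labelled shFbxo22 senescent. For shFbxo22 young libraries its 2 estimates, 3.57 and 164, lay far apart. The base mean of KDR over the 6 libraries of the shFbxo22 senescence comparison was 3.63, which a mean of 164 in 3 of them could not give. The lower end of the endothelial sum in shFbxo22 young libraries is therefore the nearer. The 435 in shLuc young libraries came from the comparison that gave 164 and is then too low. With KDR in it, the sum was lower with shFbxo22 in senescent cells, as THBD was. The sum was highest in young shLuc cells, where THBD was not. The part of endothelial transcripts in the THBD values was not tested. Markers of other cell types were also low, and most of their sums were lower with shFbxo22, though not all of their genes were. The summed level of 5 keratinocyte markers was 38.7 to 44.4 normalized counts in the libraries labelled shFbxo22 senescent, 24.5 to 46.9 in shFbxo22 young, 94.6 to 106 in shLuc senescent and 205 to 220.1 in shLuc young libraries. Most of that sum was CDH1, at 81.8 to 92.6 in shLuc senescent and 191 to 205 in shLuc young libraries. For 5 macrophage markers the sum was 58.4 to 59.9 in the libraries labelled shFbxo22 senescent, 60.7 to 69.3 in shFbxo22 young, 75.4 to 81.8 in shLuc senescent and 149 in shLuc young libraries. Much of it in the shLuc groups was CSF1R, at 51.7 to 61.4 in senescent and 113 to 118 in young libraries. PTPRC, CD14 and CD163, all at low counts, had higher means in both shFbxo22 groups than in either shLuc group. For 5 megakaryocyte and platelet markers the sum was 3.59 to 6.95 in the shFbxo22 groups and 13.8 to 19.1 in the shLuc groups, and for 4 melanocyte markers 25.7 to 37.5 over all groups. Most of the megakaryocyte and platelet sum was ITGA2B, at 13.1 to 17.4 in the shLuc groups. The part of these transcripts in the results on the 9 genes was not tested.

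PROCR, the protein C receptor, averaged 834 normalized counts in the libraries labelled shFbxo22 senescent, 534 in shFbxo22 young, 715 in shLuc senescent and 410.5 in shLuc young libraries. Like TFPI2, it was higher in both senescent groups than in either young group. It rose in senescence with 0.63 ± 0.11 in the libraries labelled shFbxo22 (adjusted p = 3.55e-07) and with 0.80 ± 0.12 in shLuc libraries (adjusted p = 4.78e-10) in the authors' deposited tables. With shFbxo22 it was higher in young cells, at 0.36 ± 0.12 (adjusted p = 0.011), in the authors' deposited table. Among senescent libraries it was at 0.22 ± 0.11 with shFbxo22 as labelled, with an interval of -0.0012 to 0.44 (adjusted p = 0.11), in the authors' deposited table. Over the 4 comparisons TFPI2 and PROCR were the most alike of all pairs among the 9 genes, with a root mean square difference of 0.13 in log2 fold change.

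PLAU, which encodes urokinase, averaged 1312 normalized counts in the libraries labelled shFbxo22 senescent, 1837 in shFbxo22 young, 985 in shLuc senescent and 1789.9 in shLuc young libraries. The young groups lay close together and the senescent groups lower. Its fall in senescence was -0.49 ± 0.10 in the libraries labelled shFbxo22 (adjusted p = 9.75e-06) and -0.86 ± 0.10 in shLuc libraries (adjusted p = 2.67e-17) in the authors' deposited tables. The hairpins were at 0.031 ± 0.099 in young cells, with an interval of -0.16 to 0.23 (adjusted p = 0.85), in the authors' deposited table. Among senescent libraries PLAU was higher with shFbxo22 as labelled, by 0.41 ± 0.10 (adjusted p = 1.07e-04), in the authors' deposited table.

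PLAUR, the urokinase receptor, averaged 1564 normalized counts in the libraries labelled shFbxo22 senescent, 1662 in shFbxo22 young, 1286 in shLuc senescent and 1903 in shLuc young libraries. This was the narrowest range among the 9 genes on the log scale. With shFbxo22 as labelled, senescent libraries were at -0.091 ± 0.10 against young ones, with an interval of -0.29 to 0.105 (adjusted p = 0.66), in the authors' deposited table. PLAUR fell in shLuc senescence with -0.57 ± 0.10 (adjusted p = 5.15e-08) in the authors' deposited table. Between hairpins it was at -0.20 ± 0.10 in young cells, with an interval of -0.40 to -0.0053 that did not pass after adjustment (adjusted p = 0.11), and higher with shFbxo22 in senescent cells, at 0.28 ± 0.10 (adjusted p = 0.013), in the authors' deposited tables.

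PLAT, the tissue plasminogen activator, averaged 1049 normalized counts in the libraries labelled shFbxo22 senescent, 1563 in shFbxo22 young, 792 in shLuc senescent and 543 in shLuc young libraries. It was the only one of the 9 genes called in opposite directions in the 2 senescence comparisons. PLAT fell in the libraries labelled shFbxo22 senescent, at -0.58 ± 0.10 against young ones (adjusted p = 3.10e-07), and rose in shLuc senescence, at 0.55 ± 0.11 (adjusted p = 7.01e-06), in the authors' deposited tables. Young shFbxo22 cells held 2.86-fold more than young shLuc cells, at 1.51 ± 0.11 (adjusted p = 1.55e-44), in the authors' deposited table. Among senescent libraries the excess in the libraries labelled shFbxo22 was 0.39 ± 0.10 (adjusted p = 6.88e-04) in the authors' deposited table.

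THBS1 averaged 223396 normalized counts in the libraries labelled shFbxo22 senescent, 325046 in shFbxo22 young, 117095 in shLuc senescent and 130507 in shLuc young libraries. Both shFbxo22 groups lay above both shLuc groups. By base mean it ranked between 3rd and 12th of all genes and made up 0.557% to 1.26% of the summed base means of a table. Per kilobase of exon (GENCODE 29, build GRCh38, not the authors' gene models) THBS1 had 24394 normalized counts in the libraries labelled shFbxo22 senescent, 35493 in shFbxo22 young, 12786 in shLuc senescent and 14251 in shLuc young libraries. Second per kilobase was TFPI2 in both senescent groups, at 1165 with shFbxo22 as labelled and 1088 with shLuc, while it was F3 in young shFbxo22 libraries, at 835, and PLAU in young shLuc libraries, at 607. In senescent shLuc libraries F3 was the lowest of the 9 genes per kilobase, at 27.0, below THBD at 100.9.

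With shFbxo22, THBS1 was 2.43-fold higher in young cells, at 1.28 ± 0.26 (adjusted p = 5.58e-06), and 1.86-fold higher in senescent cells, at 0.90 ± 0.08 (adjusted p = 3.67e-26), in the authors' deposited tables. Neither senescence comparison passed for THBS1. It was at -0.51 ± 0.24 in the libraries labelled shFbxo22 (interval -0.97 to -0.053, adjusted p = 0.12) and at -0.13 ± 0.08 in shLuc libraries (interval -0.29 to 0.029, adjusted p = 0.20) in the authors' deposited tables. The 2 comparisons that hold young shFbxo22 libraries had the wide errors. For genes whose base mean reached 10000 the median standard error was 0.10 and 0.097 in those 2 tables, and 15 of 266 and 15 of 268 such genes had one as large as that of THBS1. Its errors of 0.080 and 0.083 in the other 2 tables were below the medians of 0.087 and 0.090. The spread of the single young shFbxo22 libraries was not analysed here.

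The senescence response was then compared between hairpins, by subtracting the shLuc from the shFbxo22 fold change and dividing by the combined standard error, with adjustment over 18598 genes. The 2 tables share no library. Of the 9 genes 3 responses were higher and 4 lower with shFbxo22 as labelled, where 18.8% of genes were higher and 18.1% lower. F3 differed most, by 3.67 ± 0.18 (adjusted p = 1.21e-91), followed by THBD with -1.67 ± 0.27 (adjusted p = 4.49e-09) and PLAT with -1.12 ± 0.15 (adjusted p = 2.67e-12). PLAUR differed by 0.48 ± 0.14 (adjusted p = 0.0028), PLAU by 0.38 ± 0.14 (adjusted p = 0.020), TFPI by -0.62 ± 0.15 (adjusted p = 1.54e-04) and TFPI2 by -0.39 ± 0.14 (adjusted p = 0.016). For TFPI, TFPI2, THBD, PLAU, PLAUR and F3 the response in the libraries labelled shFbxo22 was the nearer of the 2 to 0. No difference was called for THBS1, at -0.39 ± 0.25 (interval -0.87 to 0.10, adjusted p = 0.23), or PROCR, at -0.17 ± 0.17 (interval -0.49 to 0.16, adjusted p = 0.47).

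The same sums of fold changes were taken for the other genes between the libraries labelled shFbxo22 senescent and the shLuc young libraries, with no test. They were 1.10 and 1.08 for TFPI2, 1.01 and 0.99 for PROCR, 0.94 by both routes for PLAT, 0.77 by both for THBS1 and 0.46 and 0.45 for TFPI. They were -0.51 and -0.52 for THBD, -0.46 and -0.45 for PLAU and -0.29 by both for PLAUR.

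**Figure D4:**
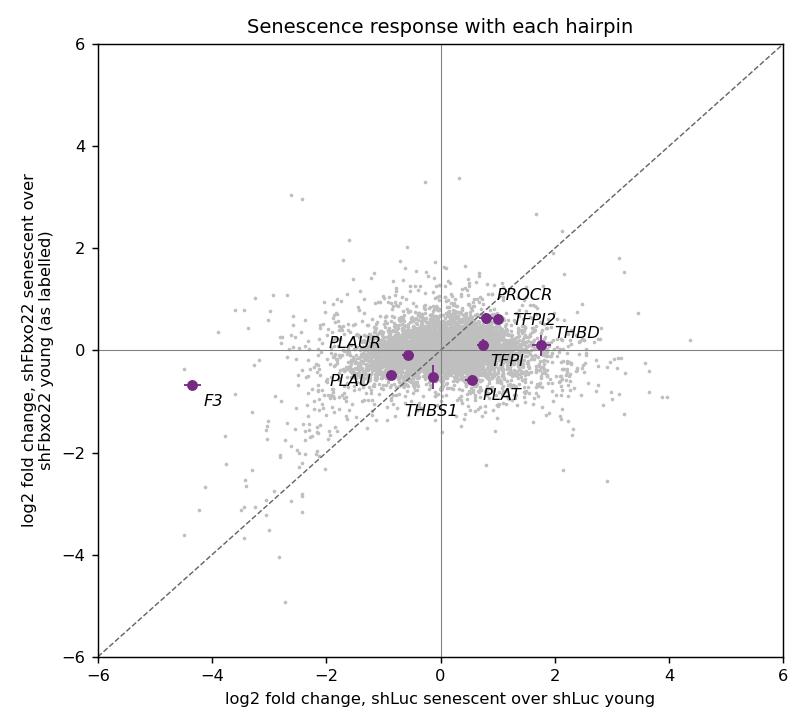
Log2 fold change in senescence with shLuc (horizontal) and with shFbxo22 as labelled (vertical), for the 9 genes with their standard errors and, in grey, 9109 genes whose base mean reached 200 in every table. The dashed line marks equal responses. F3 lies at -0.67 with shFbxo22 and -4.34 with shLuc, THBD at 0.10 with shFbxo22 and 1.77 with shLuc, and TFPI2 and PROCR lie near the line.

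Other genes of clotting and fibrinolysis were read from lists of pathway members. SERPINE2, protease nexin-1, which inhibits thrombin and urokinase, was higher in senescence with 0.73 ± 0.10 in the libraries labelled shFbxo22 and with 1.32 ± 0.09 in shLuc libraries in the authors' deposited tables.

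Beside the same shares of all genes (8.16% higher and 9.57% lower with shFbxo22 as labelled, 21.2% and 21.3% with shLuc), the protease-activated receptors and clotting genes were counted. The thrombin receptor F2R rose in senescence with shFbxo22 as labelled, at 0.32 ± 0.09, and fell in shLuc senescence, at -1.25 ± 0.09, in the authors' deposited tables. F2RL2, a further protease-activated receptor, was at 0.36 ± 0.10 with shFbxo22 as labelled and at -1.15 ± 0.11 with shLuc, both called, in the authors' deposited tables. Of the 3 tested receptors of this family 2 rose in senescence with shFbxo22 as labelled, and all 3 fell with shLuc. Of the 16 genes of the clotting cascade itself, most of which are made in liver, 1 rose and 1 fell of 3 tested in senescence with shFbxo22 as labelled, and 3 rose and 1 fell of 5 tested with shLuc. With shFbxo22 as labelled F10 (factor X) was at -0.18 ± 0.12 and PROS1 (protein S, the cofactor of activated protein C) at 0.21 ± 0.13, neither called, in the authors' deposited table. With shLuc F10 was at 1.80 ± 0.11 and PROS1 at 2.12 ± 0.16, both called, in the authors' deposited table. Of the 15 clotting regulators 0 of 10 tested were called by DESeq2 in senescence with shFbxo22 as labelled, with 2 at an unadjusted p under 0.05, and 4 rose and 2 fell of 12 tested with shLuc.

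Other thrombospondins were called in senescence, where THBS1 was not. The shares of all genes were again 8.16% higher and 9.57% lower with shFbxo22 as labelled, and 21.2% higher and 21.3% lower with shLuc. Of the 4 other family members tested (THBS2, THBS3, THBS4 and COMP), 1 rose and 2 fell in senescence with shFbxo22 as labelled, and all 4 rose with shLuc. THBS2 and THBS3 fell in senescence with shFbxo22 as labelled, at -0.27 ± 0.10 and -0.51 ± 0.11, and rose in shLuc senescence, at 1.54 ± 0.08 and 0.90 ± 0.10, in the authors' deposited tables. COMP rose in both, at 1.32 ± 0.18 with shFbxo22 as labelled and 2.36 ± 0.28 with shLuc, in the authors' deposited tables. Between hairpins in senescent cells 1 of the 4 was higher and 3 were lower with shFbxo22 as labelled, where 20.2% of all genes were higher and 19.9% lower. Among 12 thrombospondin receptors and partners, 5 rose and 1 fell in senescence with shFbxo22 as labelled, and 7 rose and 5 fell with shLuc. The heparan sulfate proteoglycan SDC1 was at 0.96 ± 0.11 with shFbxo22 as labelled and -1.75 ± 0.10 with shLuc, and the integrin chain ITGA3 at 0.68 ± 0.12 with shFbxo22 and -1.07 ± 0.09 with shLuc, in the authors' deposited tables. Of 9 plasminogen receptors and related genes 7 were tested, of which 1 rose and 1 fell in senescence with shFbxo22 as labelled. With shLuc 3 of the 7 rose and 4 fell, with ENO1 at -1.52 ± 0.08 and S100A10 at -0.71 ± 0.11, in the authors' deposited table. Among 9 partners of the urokinase receptor and tissue factor, 0 of 6 tested were called by DESeq2 in senescence with shFbxo22 as labelled, with 2 at an unadjusted p under 0.05, and 3 rose and 2 fell with shLuc. ITGA5 was at -0.08 ± 0.11 with shFbxo22 as labelled and -0.94 ± 0.08 with shLuc in the authors' deposited tables.

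Between hairpins, 18.7% of all genes tested were higher and 17.3% lower with shFbxo22 in young cells, and 20.2% higher and 19.9% lower in senescent cells. The 7 tested plasminogen receptors and related genes had 2 higher and 2 lower in young cells and 4 higher and 2 lower in senescent cells. The 4 higher ones in senescent cells were PLGRKT, ENO1, ANXA2 and S100A10, and the 2 lower ones MRC2 and VLDLR. Thrombospondin receptors and partners had 4 higher and 4 lower of 12 in young cells and 5 higher and 4 lower in senescent cells, with ITGA3 at 1.25 ± 0.10 in senescent cells in the authors' deposited table. The protease-activated receptors had 1 higher and 2 lower of 3 in young cells and 2 higher in senescent cells, with F2RL2 at 2.17 ± 0.11 there in the authors' deposited table.

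Further list genes were called in at least 3 of the 4 comparisons. With shFbxo22 as labelled, TGFB1 was at 0.58 ± 0.13 and SDC4 at 0.25 ± 0.09 in senescence, both called, and GAS6, CALR, LMAN1, MRC2, VLDLR, LTBP1 and IGF2R lay between -0.21 and 0.15 and were not called, in the authors' deposited table. In shLuc senescence GAS6, a ligand of TAM receptors, was at -0.97 ± 0.10, the calreticulin gene CALR at -1.16 ± 0.09 and SDC4 at -0.20 ± 0.08, all lower, in the authors' deposited table. LMAN1, a cargo receptor for factors V and VIII, was at 0.33 ± 0.09, MRC2 at 0.56 ± 0.10, VLDLR at 1.22 ± 0.10, TGFB1 at 0.43 ± 0.12, LTBP1 at 1.18 ± 0.08 and IGF2R at 0.94 ± 0.08, all higher, in the authors' deposited table.

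**Figure D5:**
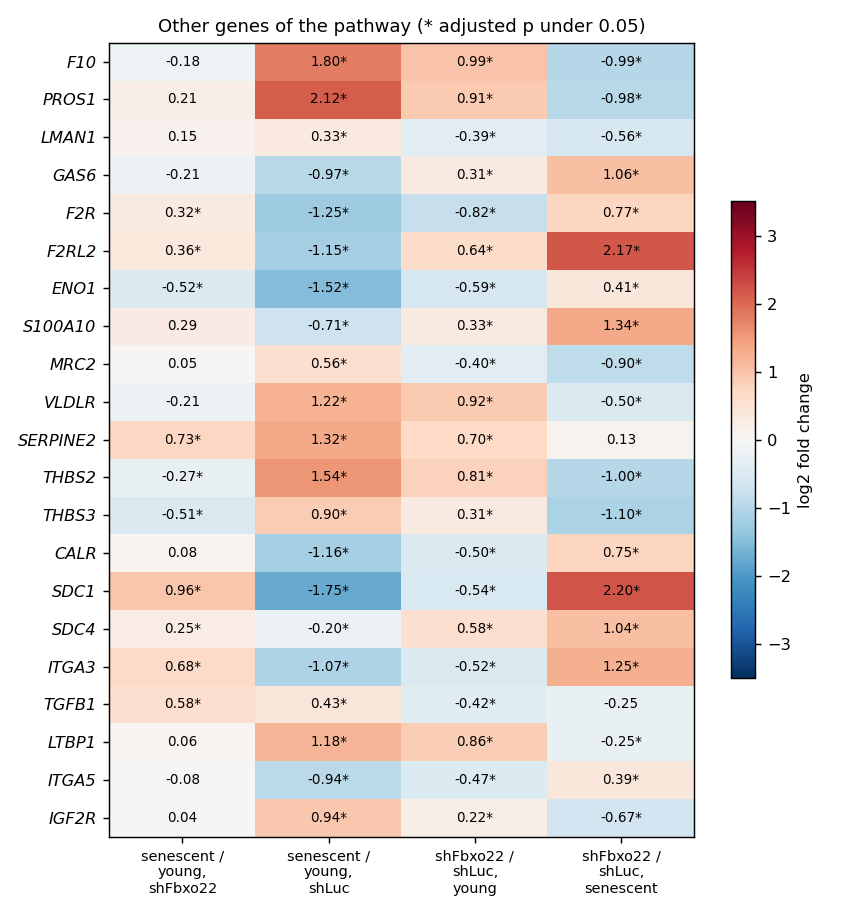
Log2 fold changes of other genes of clotting, fibrinolysis and thrombospondin binding in the 4 comparisons, from red (higher in senescent or in shFbxo22 cells) to blue (lower). A star marks an adjusted p under 0.05, and F2RL2 shows 0.36 for senescence with shFbxo22 as labelled, -1.15 for senescence with shLuc and 2.17 for the hairpins in senescent cells.

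For each gene up to 3 of the most similar patterns are given, sought among 9109 genes, by the root mean square difference of the 4 log2 fold changes. F3 had no close neighbour: the nearest were CTGF at 0.75, OXTR at 0.77 and KRT34 at 0.86. TFPI was closest to PPDPF (0.013) and PPP1R12B (0.019), and PLAUR to RNASEH1 (0.025), BZW1 (0.030) and NUP214 (0.032). PROCR was closest to VPS13C (0.028), PIK3R1 (0.061) and SNX2 (0.078), and TFPI2 to ERN1 (0.054), TAP1 (0.076) and SNORD105B (0.087). PLAU was closest to THY1 (0.072), MKL1 (0.085) and EWSR1 (0.089), and PLAT to JUP (0.081), SYPL2 (0.13) and DAAM2 (0.19). THBS1 was closest to WNT5A (0.081), L1CAM (0.20) and PGM5 (0.22). THBD was not entered, because its base mean was under 200 in 2 tables. The 4 values of a gene come from the same 12 libraries, so likeness here is a description of these groups.

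Some counts may include reads of a neighbour on the other strand, since the sources used here do not say whether counting used strand. In the GENCODE 29 models, 31.1% of the exonic bases of PLAU overlap C10orf55, 12.9% of those of PROCR overlap the antisense gene AL356652.1 and 4.89% of those of THBS1 overlap FSIP1. Overlaps with a smaller share are not given here. C10orf55 had base means of 6.61 to 8.95 and FSIP1 of 22.2 to 40.7 in the authors' deposited tables, far below those of PLAU and THBS1. For AL356652.1 no value was read. A low count of a neighbour does not show how reads in shared bases were counted.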

How the data were processed

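RNA libraries of 4 groups of 3 were compared by the authors in 4 tables of 2 groups each. Per the submitters' processing notes, the tools were R 3.2.2, DESeq2 1.14.1, STAR 2.3.0 and Bowtie2 2.0.0, with hg19 and GRCh37, named without their roles. Per the file headers, each deposited row holds a base mean (a normalized signal), a log2 fold change with its standard error, a Wald score, a p-value and an adjusted p-value. In 1 table, 8111 deposited rows are given to 7 significant digits only. Rows with a date for a symbol (28 per table) were left out. Signs were settled by requiring that each group's mean come out alike from its 2 tables: of 16 choices the chosen one left a mean absolute log2 gap of 0.00918 over 9109 genes, against 0.131 for the next. The difference between senescence responses was a normal z with Benjamini-Hochberg adjustment (scipy 1.17.1). The z test was run on simulated data whose noise was drawn from the deposited standard errors. That run checks the code and not whether those errors are right. All other tests are the authors' deposited Wald tests. All 9 members were named. List genes were named where called in at least 3 of 4 comparisons with base means of at least 200, and SERPINE2 and F2R in any case; some items under these rules are not reported here. C10orf55, FSIP1, AL356652.1, THBS4, COMP, PLGRKT and ANXA2 are named outside this rule, as are the markers of endothelial and other cell types. The values of these markers, of PLGRKT and of ANXA2 were seen before they were chosen for the text. Members and lists were chosen with earlier results of these data known. Alternatives are in the closing section.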

Additional observations from a re-analysis of the deposited data

Results flagged for a closer look

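The senescence response of 7 of the 9 genes differed between the hairpins by the z test of the difference, with adjustment over 18598 genes, of which 18.8% were called higher and 18.1% lower. The shFbxo22 response minus the shLuc response was 3.67 for F3, -0.62 for TFPI, -0.39 for TFPI2, -1.67 for THBD, 0.38 for PLAU, 0.48 for PLAUR and -1.12 for PLAT on the log2 scale. FBXO22 itself was higher, not lower, in the libraries labelled shFbxo22 senescent that enter each of these differences, and its part in them was not tested.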

How the results depend on the processing

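No paired analysis was possible because values for single libraries were not analysed here, and for the same reason fits that leave out each library in turn were not run. Of 225 values of single genes under an alternative, 201 kept their side of the threshold and 24 no longer passed. Only recentring and the hairpin tables changed a log2 value, and none of those 54 values turned direction. This is no evidence of robustness. Recentring subtracted medians no larger than 0.018, below the smallest fold change among the 9 genes, 0.031 for PLAU in young cells. The hairpin tables give the same difference of responses from the same 12 libraries. From 1 table alone, all 72 group means lay within the fold change's standard error of the average. That closeness was largely built in: both tables hold the same libraries of a group, and signs were chosen to make the estimates alike. Against a null of an absolute log2 change up to 0.5, the members called in the shFbxo22 senescence comparison were 0 higher and 0 lower (all genes 284 and 375, against 1530 and 1795). In shLuc senescence 2 were higher and 2 lower (all genes 1608 and 1707, against 4651 and 4670), and TFPI, PROCR, PLAT and PLAUR no longer passed. For the hairpins in young cells 2 were higher and 0 lower (all genes 899 and 890, against 3753 and 3465), and in senescent cells 2 were higher and 1 lower (all genes 1480 and 1571, against 4608 and 4532). At a threshold of 0.01 the members were 5 higher and 0 lower with shFbxo22 in young cells (all genes 2878 and 2626; THBD no longer passed, adjusted p = 0.015) and 4 higher and 1 lower in senescent cells (all genes 3732 and 3664; TFPI no longer passed, adjusted p = 0.019). PROCR in young cells, PLAUR in senescent cells, and the differences of response for TFPI2 and PLAU also no longer passed 0.01. Recentring on the median or adjusting over other sets of genes changed no call among the 9 genes. Nor did taking the differences of response from the hairpin tables, which is the same quantity from the same libraries. The fold changes are moderated, and the depth of single libraries is unknown.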
